A study of Mus musculus with 8 samples.

Results

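Fatty acid oxidation and ketogenesis are represented here by a list of 35 genes, of which 34 had a probe set whose annotation gave exactly 1 gene symbol, out of 18193 such genes on the array. Where a gene had several probe sets, the brightest of them on average stood for it. Acsl1, an enzyme that activates long-chain fatty acids, was not matched and is not analysed here. All 34 genes lay above the filter on dim signals, and 14450 genes were tested in all.

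The study used Affymetrix arrays to measure liver RNA of male C57BL/6 mice aged 7 to 10 weeks, either wild type or Tob1 null. Livers were taken from unoperated animals (0 h) or 24 h after a 2/3 hepatectomy, in which the median and left lateral lobes are tied off and the remaining liver regrows. Each of the 4 groups had 2 arrays, each with RNA pooled from 3 animals, a different set for each array, and the spread between pools is the source of the errors below. Tob1 belongs to a family of antiproliferative proteins, and the comparisons address how the response to hepatectomy differs without it. The null animals came from an established line on the C57BL/6 background. No group was sham-operated, so surgery itself and the loss of liver tissue cannot be told apart, and neither can fewer cells of a type and less RNA per cell.

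Values are log2 signals after quantile normalisation, so a difference of 1 is a doubling. They are not compared between genes, since each probe set has its own brightness. Differences were tested with limma over all 14450 genes, with 0.05 as the threshold for the two-sided p after Benjamini-Hochberg adjustment. "Rose" and "fell" are used only of genes that passed. Differences are given as log2 ± SE for 2 arrays against 2, or for 4 against 4 where the responses of both genotypes are averaged. The SE uses the spread of a gene pooled over all 4 groups and drawn by limma toward that of other genes. It is therefore the same in every comparison of 2 arrays against 2, and is not the spread of the arrays compared. The replicate arrays of a group correlated at 0.949 to 0.960. Linear signals summed over 8 defining hepatocyte genes ranged from 58887 to 66401 over the arrays, and those over 6 skeletal muscle genes from 42.4 to 59.3. The brightest hepatocyte genes, such as Alb at 13.48 to 13.58, carry the hepatocyte sum, and quantile normalisation levels signals of that height. That sum is therefore no check of hepatocyte content. In the mean response 1 of the 8 rose and 2 fell, against 13.8% and 15% of all genes. The brighter probe set of the targeted gene Tob1 read 11.07 ± 0.05 (SD, n = 2) in the null-labelled arrays at 0 h against 10.50 ± 0.05 in wild type, and 10.62 ± 0.06 against 10.03 ± 0.23 at 24 h. It was thus higher, not lower, in the arrays labelled null (adjusted p = 0.403 at 0 h and 0.272 at 24 h). The labels do not say which bases the null allele lacks, and a probe set elsewhere in the gene is no check of it. The animals labelled Tob1 null are called null-labelled for this reason, and each direction between genotypes rests on the labels.

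In the liver, long-chain fatty acids are bound to coenzyme A and carried into mitochondria as carnitine esters, a step controlled by CPT1A. The beta-oxidation spiral there shortens them to acetyl-CoA, which the liver can turn into ketone bodies for other organs. Peroxisomes shorten very long and branched chains, and the nuclear receptor PPARA, with the coactivator PGC-1alpha, switches on genes of both organelles during fasting.

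PPARA binds DNA together with RXR at direct repeats of the hexamer AGGTCA spaced by 1 base. RefSeq promoter windows (GRCm38.p6, 250 bases before to 50 after a gene's start) were found for 29 of the genes, with 30 promoters. A motif of 2 AGGTCA hexamers in the same direction with any 1 base between them, and up to 2 mismatches over the 12 fixed bases, was searched on both strands. It matched in 4 of the 30 promoters (13.3%) and in 1268 of all 32851 promoters (3.86%). The single hexamer AGGTCA, which the longer motif contains, was in 16.7% of the 30 and in 16.3% of all. The matches upstream of a start are shown because they are the stretches of these promoters nearest to the receptor's motif; the match in Slc25a20 lies after the start. Capitals mark the match, and the sequence is written 5′ to 3′ on the strand of the gene, with the motif itself on the opposite strand. The windows are chr5:17835923-17835983 (minus strand) for Cd36, chr9:55512284-55512344 (minus strand) for Etfa and chr6:71199788-71199848 (plus strand) for Fabp1, and the matches begin 63, 77 and 67 bases before the start.
Cd36: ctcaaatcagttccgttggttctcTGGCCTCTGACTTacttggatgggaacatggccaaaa
Etfa: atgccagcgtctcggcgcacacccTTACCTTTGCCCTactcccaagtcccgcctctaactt
Fabp1: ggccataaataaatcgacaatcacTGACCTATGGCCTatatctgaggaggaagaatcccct
The Fabp1 match has 1 mismatch and the other two have 2 each. A match describes letters only, and no binding was measured. The genes with these letters did not move alike: Cd36 rose in wild type, while Fabp1 and Etfa fell when both genotypes were averaged, with values given below.

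Over the 34 genes the hepatectomy response in wild type leaned upward. Cd36, Cpt1a, Acadl, Ehhadh and Acot2 rose and none fell, so 5 of 34 passed where 9.21% of all genes did (4.13% higher and 5.08% lower). By sign 25 genes were higher at 24 h and 9 lower, with a median of 0.20 against -0.03 over all genes. Both arrays at 24 h lay above both at 0 h in 18 genes and below them in 7, against 29.4% and 32.7% of all genes. With the deposited values in place of quantile normalisation 19 were higher, with a median of 0.10. In the null-labelled arrays Ehhadh rose and Ppara, Cpt1a, Hadh and Acaa1b fell. The 5 of 34 that passed are a share like that of all genes, 14.7% (7.45% higher and 7.23% lower). Here 14 were higher and 20 lower (median -0.14, all genes -0.04), and the times were separate upward in 11 and downward in 14, against 29.7% and 33.3% of all genes. With arrays centred on their medians 16 were higher, with a median of -0.04 over the 34 genes against 0.12 over all genes. In the mean of both genotypes 8 of the 34 rose and 6 fell, against 13.8% and 15% of all genes, with a median of 0.09. All 4 arrays at 24 h lay above all 4 at 0 h in 7 genes and below in 7, against 15% and 16.5% of all genes. Genes of the list thus passed in both directions.

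**Figure D1:**
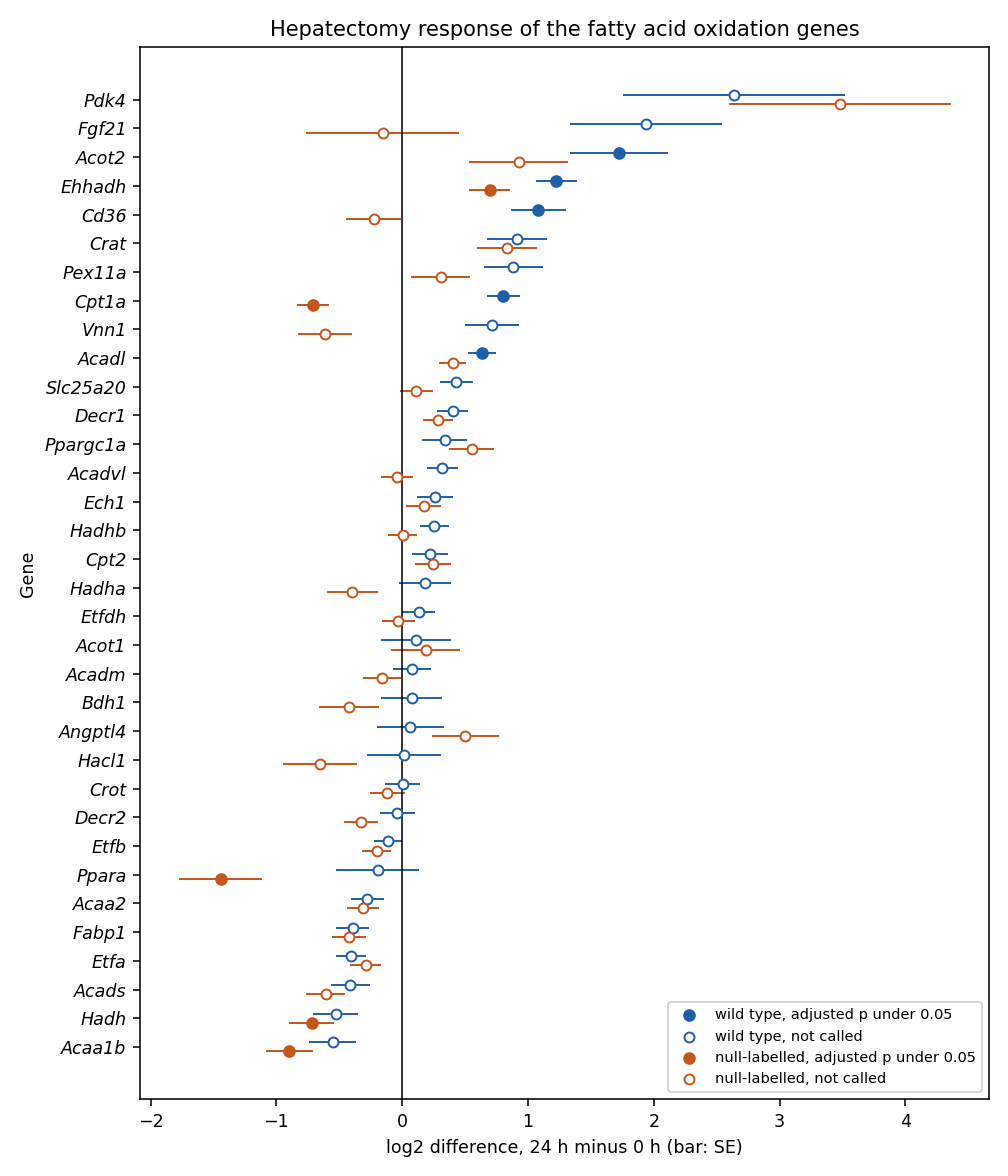
Log2 difference of 24 h minus 0 h (x axis) for each of the 34 genes (rows, ordered by the wild type value) in wild type (blue) and null-labelled arrays (orange), with bars of 1 SE and filled points where the adjusted p is under 0.05. Cpt1a has filled points on opposite sides of 0 (0.80 in wild type, -0.71 in null-labelled arrays), whereas both points of Pdk4 (2.64 and 3.48) and Ehhadh (1.22 and 0.70) lie above 0.

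These counts rest on few arrays and on the processing. Of 17 alternatives (other scalings, filters, probe set rules and priors, a replicate block, fits of the compared groups, and each array left out in turn), the wild type calls were lost in 4 for Ehhadh, 9 for Cpt1a and Cd36, 11 for Acot2 and 12 for Acadl. The null-labelled calls were lost in 7 for Cpt1a, 8 for Ppara, 9 for Acaa1b, 11 for Hadh and 12 for Ehhadh. Of 16 alternatives, the calls in the mean response were lost in 0 for Ehhadh and Acaa1b, 1 for Acadl, 3 for Crat, Hadh and Acot2, 4 for Pdk4 and 6 for Acads. They were lost in 8 for Ppara and Fabp1, 9 for Etfa and Pex11a, 11 for Ppargc1a and 13 for Decr1. In wild type none of the 34 passed when either wild type array at 0 h, or array 1 of wild type at 24 h, was left out. The count was 2 without array 2 of wild type at 24 h, and 1 without either null-labelled array at 0 h. In the null-labelled response none passed when either null-labelled array at 0 h, or array 2 of that genotype at 24 h, was left out. There, 2 passed without array 1 of the null-labelled pair at 24 h or without either wild type array at 0 h. The 14 calls in the mean response became 4 and 5 without a null-labelled array at 0 h, 5 without either wild type array at 0 h or the first at 24 h, and 8 when the other null-labelled pool at 24 h (array 2) was left out.

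Among the regulators, the receptor gene Ppara was lower after hepatectomy in the null-labelled arrays. Its signal was 9.50 and 9.47 in wild type at 0 h, 8.92 and 9.65 at 24 h, and 9.83 and 9.49 against 8.58 and 7.85 in the null-labelled arrays. Both null-labelled arrays at 24 h lie below the other 6, while the wild type groups overlap. Ppara fell by 1.44 ± 0.33 in the null-labelled arrays (adjusted p = 0.0405), a 2.72-fold drop. The wild type difference was -0.19 ± 0.33 (adjusted p = 0.737), and the difference between the responses, -1.25 ± 0.47, did not pass (adjusted p = 0.571). All 3 Ppara probe sets had negative values in the null-labelled response, from -1.17 to -1.44. The mean response also passed (-0.82 ± 0.23, adjusted p = 0.0466).

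Ppargc1a, which encodes PGC-1alpha, moved the other way by a small step. It read 5.34 and 5.05 in wild type at 0 h, 5.73 and 5.33 at 24 h, and 5.18 and 5.22 against 5.70 and 5.81 in the null-labelled arrays. The null-labelled groups are separate, and the wild type groups overlap only slightly. Ppargc1a rose by 0.44 ± 0.13 in the mean of both genotypes (adjusted p = 0.0451), without passing in either alone (0.34 and 0.55). The call rests on 1 of 5 dim probe sets. The others gave 0.24, 0.05, 0.38 and 0.50 in the mean response, and none of these passed. In the null-labelled arrays they gave only 0.17, 0.02, 0.18 and 0.09, each below its wild type value.

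For fatty acid uptake, Cd36 encodes a membrane transporter that takes up long-chain fatty acids. Its arrays read 7.44 and 7.69 in wild type at 0 h, 8.78 and 8.52 at 24 h, and 8.06 and 7.70 against 7.87 and 7.44 in the null-labelled arrays. Both wild type arrays at 24 h stand above the other 6. Cd36 rose 2.12-fold in wild type (1.08 ± 0.22, adjusted p = 0.0385). In the null-labelled arrays the difference was -0.23 ± 0.22 (adjusted p = 0.505), with overlapping groups, and the other two probe sets gave 0.59 and 0.19 there. Their wild type values, 1.36 and 1.06, had the same sign as the first. The responses differed by -1.31 ± 0.31 (adjusted p = 0.531).

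Fabp1 encodes the abundant fatty acid binding protein of the hepatocyte cytosol. It had the same rank in every array at 0 h, so quantile normalisation gave all 4 the same value, 13.63. At 24 h it was 13.10 and 13.38 in wild type and 13.22 and 13.20 in null-labelled arrays, all below the 0 h arrays. Fabp1 fell by 0.41 ± 0.09 in the mean response (adjusted p = 0.0248). The equal values give both 0 h groups an SD of 0, which enters this SE and makes it smaller. The size depended on the scaling: it was -0.23 before quantile normalisation (adjusted p = 0.109) and -0.13 in median-centred arrays (adjusted p = 0.514), and neither passed. Before normalisation the 0 h arrays lay between 13.50 and 13.60 and the 24 h arrays between 13.23 and 13.44. A second bright Fabp1 probe set gave -0.25 in the mean response and did not pass (limma over all probe sets, adjusted p = 0.113).

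The carnitine shuttle holds the gene with the smallest p of the list between genotypes at 24 h. Cpt1a encodes the outer membrane enzyme that controls entry of long-chain fatty acids into mitochondria. It read 10.19 and 10.00 in wild type at 0 h, 10.85 and 10.94 at 24 h, and 10.01 and 9.89 against 9.28 and 9.19 in the null-labelled arrays. The 0 h arrays of both genotypes overlap, the wild type arrays at 24 h are the 2 highest and the null-labelled arrays at 24 h the 2 lowest. Cpt1a rose 1.74-fold in wild type (0.80 ± 0.13, adjusted p = 0.0243) and fell 1.64-fold in the null-labelled arrays (-0.71 ± 0.13, adjusted p = 0.0252). It was the only one of the 34 that passed in both genotypes in opposite directions.

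At 24 h the Cpt1a signal was 3.16-fold lower in the null-labelled arrays (-1.66 ± 0.13), with an adjusted p of 0.0561, just above the threshold. The difference between the responses was -1.51 ± 0.18 (adjusted p = 0.301). The genotype difference passed under 3 alternatives, namely a filter at the 60th percentile (adjusted p = 0.012), damping of low values by adding 16 (0.00533) and a trended robust prior (0.000458). Over all alternatives its adjusted p ran from 0.000458 to 0.434, and its size from -1.43 to -1.72. The 3 Cpt1a probe sets gave 0.59 to 0.82 in wild type, -0.65 to -0.71 in the null-labelled arrays and -1.28 to -1.66 between the genotypes at 24 h. The 250 bases before the Cpt1a start (RefSeq, GRCm38.p6, chr19:3323051-3323300, plus strand) are shown because its response turned sign between the genotypes. They hold no match to the spaced repeat and 1 single hexamer, in capitals, read on the opposite strand from 94 bases before the start.
Cpt1a: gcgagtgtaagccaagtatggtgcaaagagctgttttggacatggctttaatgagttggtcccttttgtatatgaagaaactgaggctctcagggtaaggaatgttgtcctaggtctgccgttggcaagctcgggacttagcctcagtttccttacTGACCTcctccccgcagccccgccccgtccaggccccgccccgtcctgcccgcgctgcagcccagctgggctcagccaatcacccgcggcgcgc

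**Figure D2:**
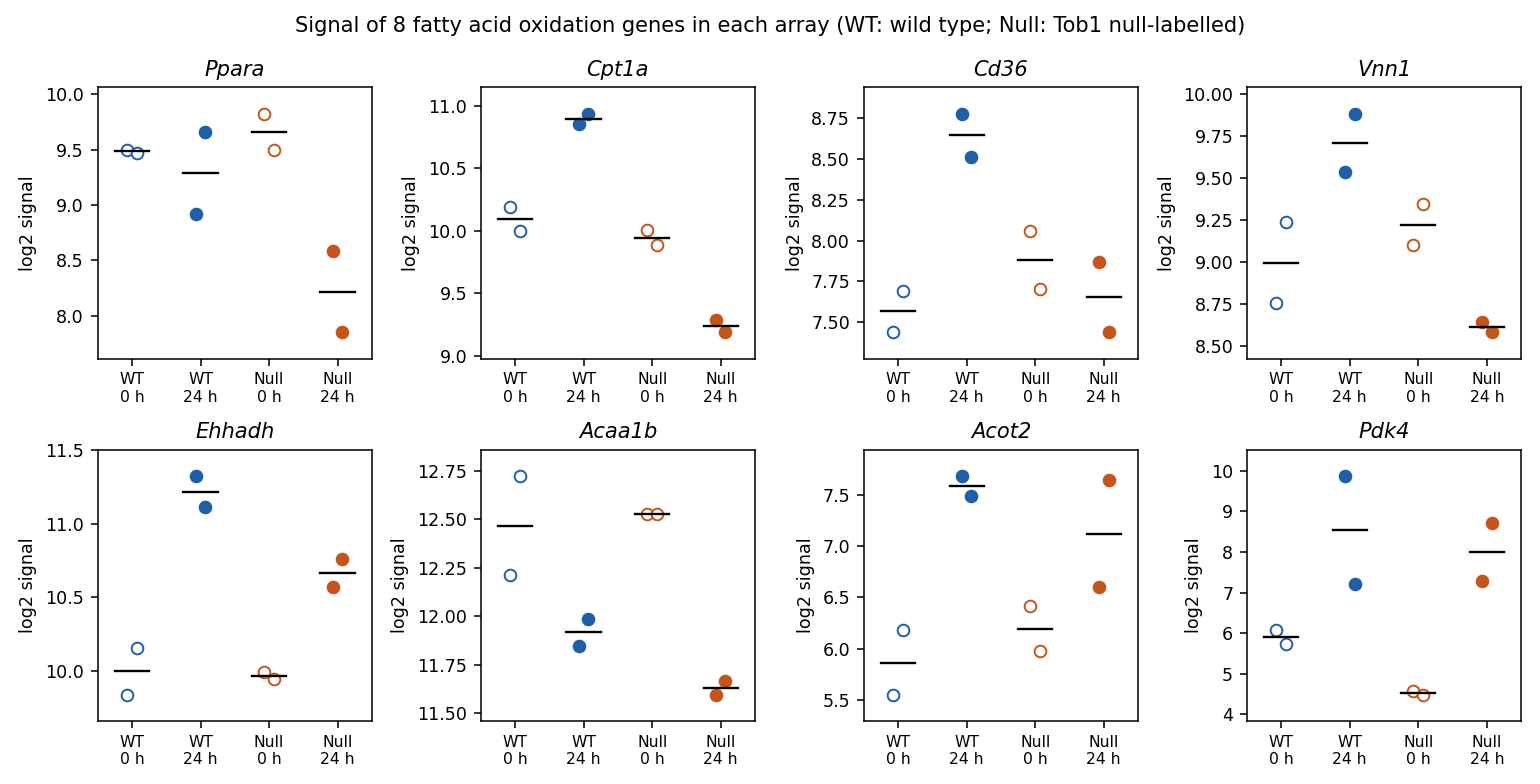
Log2 signal of 8 genes (panels, each with its own y axis) in every array, by genotype and time, with bars at the group means of 2 arrays. The Cpt1a points are highest in wild type at 24 h (10.85 and 10.94) and lowest in the null-labelled arrays at 24 h (9.28 and 9.19), while those of Ehhadh are higher and those of Acaa1b lower at 24 h in both genotypes.

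None of the other shuttle genes fell with Cpt1a in the null-labelled arrays. Between genotypes at 24 h all 5 shuttle genes were lower in the null-labelled arrays, with a median of -0.51, and none passed. The genotypes did not overlap there in any of them, where 19.7% of all genes were separate in that direction. Crat, the carnitine acetyltransferase, read 6.54 and 6.74 in wild type at 0 h, 7.24 and 7.85 at 24 h, and 5.90 and 6.19 against 6.99 and 6.76 in the null-labelled arrays. Groups at 24 h lie above those at 0 h within each genotype, and Crat rose by 0.87 ± 0.17 in the mean response (adjusted p = 0.0151). The rise rests on 1 probe set, since the others gave 0.05 and -0.18, and the mean over the 3 did not pass (0.25, adjusted p = 0.139). At both times the null-labelled arrays were lower in Crat than wild type (-0.59 at 0 h and -0.67 at 24 h), without passing (adjusted p = 0.519 and 0.369). The other probe sets gave -0.25 and 0.44 at 0 h, and -0.30 and -0.14 at 24 h.

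Cpt2, the inner membrane carnitine palmitoyltransferase, read 9.90 and 9.96 in wild type and 9.33 and 9.58 in null-labelled arrays at 0 h. At 24 h it read 10.06 and 10.24 in wild type against 9.75 and 9.65. The genotypes do not overlap at either time, yet the differences of -0.48 ± 0.14 (adjusted p = 0.433) and -0.45 ± 0.14 (adjusted p = 0.337) did not pass. Crot, a peroxisomal carnitine octanoyltransferase, showed a like gap, with 11.66 and 11.76 against 11.21 and 11.43 at 0 h and 11.64 and 11.79 against 11.27 and 11.13 at 24 h. It differed by -0.39 ± 0.14 at 0 h (adjusted p = 0.51) and by -0.51 ± 0.14 at 24 h (adjusted p = 0.296), and its hepatectomy responses were 0.00 and -0.12. Slc25a20, the carnitine carrier of the inner membrane, was 0.43 ± 0.13 higher at 24 h in wild type (adjusted p = 0.0895) and 0.11 ± 0.13 in the null-labelled arrays.

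In the mitochondrial beta-oxidation spiral, the acyl-CoA dehydrogenases of different chain lengths went in different directions. Acadl, for long chains, read 10.38 and 10.46 in wild type at 0 h, 11.08 and 11.03 at 24 h, and 10.47 and 10.48 against 10.87 and 10.88 in the null-labelled arrays. The arrays of a group lie close together, and all 4 at 24 h lie above all 4 at 0 h. Acadl rose 1.55-fold in wild type (0.64 ± 0.11, adjusted p = 0.0274) and by 0.52 ± 0.08 in the mean response (adjusted p = 0.00764). As a mean over its probe sets, of which the second is dim, the wild type value was 0.40 (adjusted p = 0.347). Its null-labelled value of 0.40 ± 0.11 missed the threshold (adjusted p = 0.0609).

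Acads, for short chains, read 8.91 and 9.14 in wild type at 0 h, 8.47 and 8.76 at 24 h, and 8.84 and 8.94 against 8.35 and 8.21 in the null-labelled arrays. Every 24 h array lies below every 0 h array. Acads fell by 0.51 ± 0.11 in the mean response (adjusted p = 0.0211), with -0.41 in wild type and -0.61 in null-labelled arrays. Acadm, for medium chains, and Acadvl, for very long chains, did not pass, with 0.08 and 0.32 in wild type and -0.16 and -0.04 in null-labelled arrays.

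Further along the spiral, Hadh, the dehydrogenase for short hydroxyacyl chains, read 11.69 and 11.87 in wild type at 0 h, 11.13 and 11.37 at 24 h, and 11.83 and 11.71 against 11.25 and 10.85 in the null-labelled arrays. Here too the times are separate in both genotypes. Hadh fell by 0.72 ± 0.18 in the null-labelled arrays (adjusted p = 0.0497) and by 0.62 ± 0.13 in the mean response (adjusted p = 0.0177). Its wild type value was -0.53 (adjusted p = 0.118). Decr1, which reduces double bonds of unsaturated chains, read 10.43 and 10.58 in wild type at 0 h, 10.88 and 10.94 at 24 h, and 10.49 and 10.58 against 10.85 and 10.78 in the null-labelled arrays. Decr1 rose by 0.34 ± 0.09 in the mean response (adjusted p = 0.0318), although its dimmer second probe set gave -0.21 and the mean of both did not pass (0.07, adjusted p = 0.653).

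Hadha and Hadhb encode the subunits of the trifunctional protein, which takes long chains through the later steps of a cycle. In RefSeq (GRCm38.p6) the 2 genes start 273 bases apart on chromosome 5 and run in opposite directions, so that 228 bases of their promoter windows are the same DNA. Hadha read 9.87 and 10.06 in wild type at 0 h, 10.12 and 10.18 at 24 h, and 9.87 and 9.90 against 9.77 and 9.20 in the null-labelled arrays. Neither its response in wild type (0.18) nor that in the null-labelled arrays (-0.40) passed, and of the null-labelled arrays at 24 h 1 was far lower than the other. Hadhb was 0.25 and 0.00 in the same comparisons. Null-labelled minus wild type at 24 h was -0.66 for Hadha and -0.26 for Hadhb, with no overlap between genotypes for either. Acaa2, the thiolase that ends a cycle, was -0.28 in wild type and -0.31 in null-labelled arrays, and its mean response missed the threshold (-0.29 ± 0.09, adjusted p = 0.0565). The other Acaa2 probe sets disagreed in sign, with -0.20 and 0.11 in the mean response and -0.14 and 0.32 in the null-labelled arrays.

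Electrons from the dehydrogenases pass to the flavoprotein made of the Etfa and Etfb products and then to the Etfdh product. Etfa read 11.01 and 11.03 in wild type at 0 h, 10.52 and 10.69 at 24 h, and 10.82 and 10.83 against 10.58 and 10.49 in the null-labelled arrays. Etfa fell by 0.35 ± 0.08 in the mean response (adjusted p = 0.0286). The partners did not pass: Etfb was -0.11 in wild type and -0.20 in null-labelled arrays, and Etfdh 0.13 and -0.03. Etfdh was lower in the null-labelled arrays at both times with no overlap (-0.28 at 0 h and -0.44 at 24 h), without passing (adjusted p = 0.571 and 0.318).

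**Figure D3:**
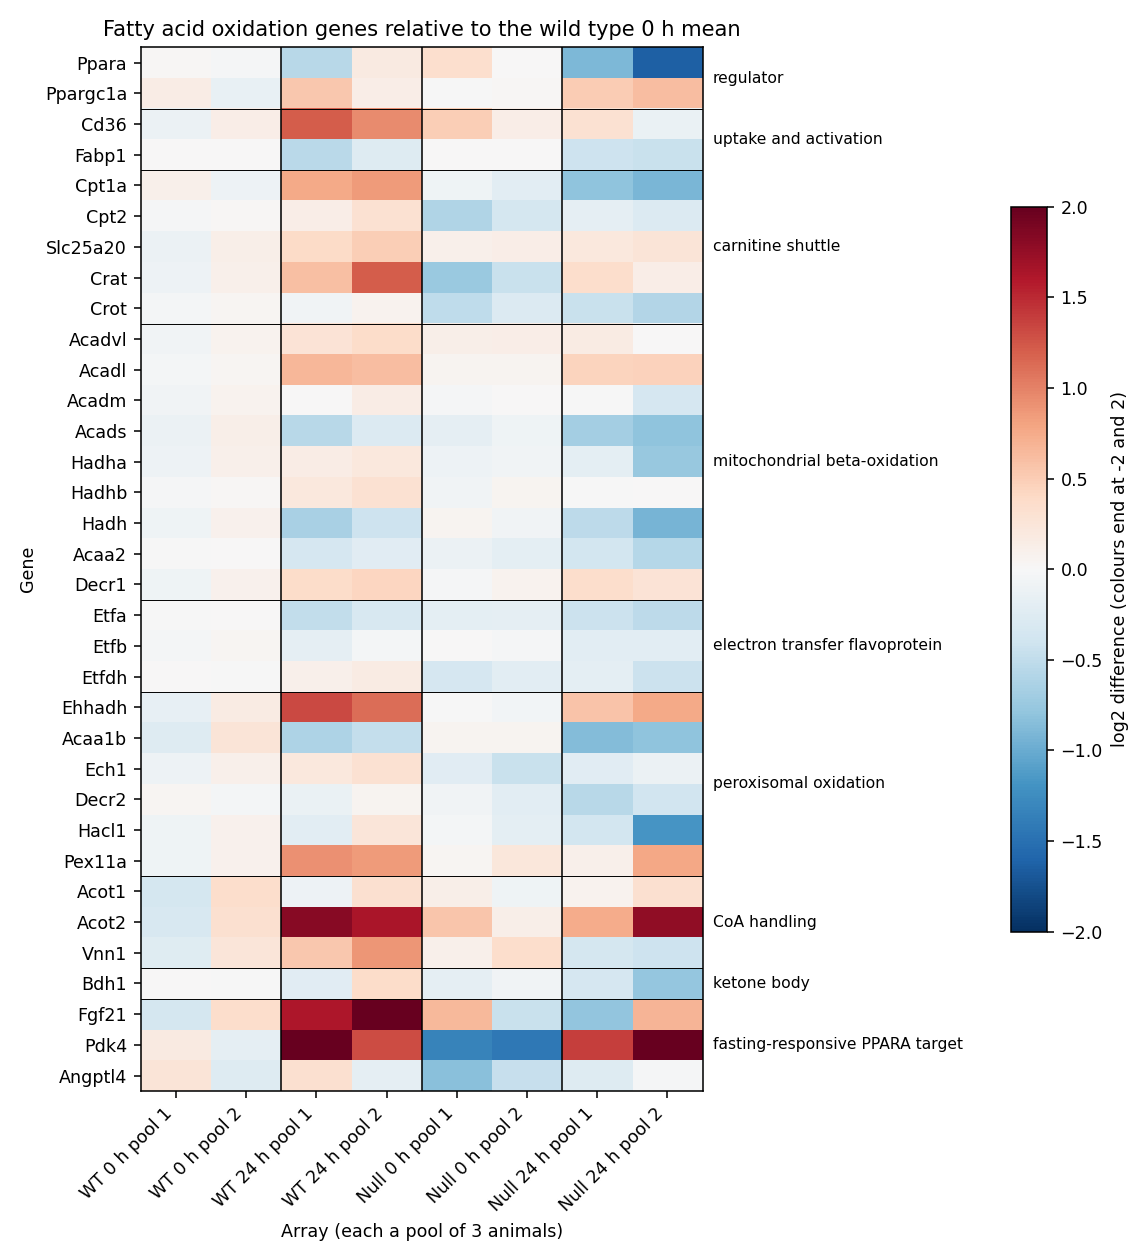
Log2 signal of each of the 34 genes (rows, by role) in each of the 8 arrays (columns), relative to that gene's wild type mean at 0 h, on a colour scale. Rows such as Ehhadh and Acadl are higher in all 4 arrays at 24 h, rows such as Acads, Hadh and Etfa lower, and Cpt1a is higher in the wild type and lower in the null-labelled arrays at 24 h.

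Peroxisomal genes gave both the rise and the fall with the smallest adjusted p of the list in the mean response. Ehhadh encodes the bifunctional enzyme of peroxisomal beta-oxidation, a classic PPARA target. It read 9.83 and 10.16 in wild type at 0 h, 11.32 and 11.11 at 24 h, and 9.99 and 9.94 against 10.57 and 10.76 in the null-labelled arrays. All 4 arrays at 24 h lie above all 4 at 0 h, and those of wild type lie highest. Ehhadh rose by 1.22 ± 0.16 in wild type (adjusted p = 0.0189), by 0.70 ± 0.16 in the null-labelled arrays (adjusted p = 0.0421) and by 0.96 ± 0.12 in the mean (adjusted p = 0.00444). The responses differed by -0.53 ± 0.23, which did not pass (adjusted p = 0.587).

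Acaa1b, a peroxisomal thiolase, went down. It read 12.21 and 12.72 in wild type at 0 h, 11.84 and 11.99 at 24 h, and 12.53 and 12.53 against 11.59 and 11.66 in the null-labelled arrays. Again the times are separate, with the 24 h arrays lowest in the null-labelled group. Acaa1b fell by 0.90 ± 0.19 in the null-labelled arrays (adjusted p = 0.0325) and by 0.72 ± 0.13 in the mean (adjusted p = 0.0129), with -0.55 ± 0.19 in wild type (adjusted p = 0.116). A near-identical thiolase gene, Acaa1a, exists, and how far its transcripts reach this probe set was not tested.

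Pex11a encodes a membrane protein of peroxisome division. It read 8.88 and 9.07 in wild type at 0 h, 9.89 and 9.83 at 24 h, and 9.01 and 9.20 against 9.07 and 9.75 in the null-labelled arrays. Pex11a rose by 0.59 ± 0.17 in the mean response (adjusted p = 0.0436), with 0.88 in wild type (adjusted p = 0.07) and 0.31 in the null-labelled arrays (adjusted p = 0.404), whose groups overlap. Ech1, Decr2 and Hacl1, enzymes for unsaturated and branched chains, did not pass in any comparison, with responses of -0.65 to 0.26. The lowest value, -0.65 for Hacl1 in the null-labelled arrays, comes from arrays at 10.59 and 9.79.

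Acyl-CoA thioesterases release free fatty acids from coenzyme A. Acot2, the mitochondrial one, read 5.55 and 6.18 in wild type at 0 h, 7.68 and 7.49 at 24 h, and 6.41 and 5.97 against 6.60 and 7.64 in the null-labelled arrays. Each array at 24 h lies above each at 0 h, but the null-labelled pair at 24 h is wide apart. Acot2 rose 3.30-fold in wild type (1.72 ± 0.39, adjusted p = 0.0499) and by 1.33 ± 0.28 in the mean (adjusted p = 0.0188). The null-labelled response, 0.93 ± 0.39, did not pass (adjusted p = 0.1585). A dimmer second probe set gave 0.78 for the wild type response, 1.03 for the null-labelled one and 0.91 for the mean. Which genotype had the larger Acot2 response thus differed between the probe sets. The cytosolic relative of Acot2, Acot1, was 0.11 in wild type and 0.19 in null-labelled arrays, within overlapping groups. The 2 transcripts are very alike, and how far each probe set reads the other was not tested.

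Vnn1 encodes pantetheinase, which breaks down a product of coenzyme A. It read 8.75 and 9.24 in wild type at 0 h, 9.54 and 9.89 at 24 h, and 9.10 and 9.35 against 8.64 and 8.58 in the null-labelled arrays. Wild type arrays were higher at 24 h and null-labelled arrays lower, in both cases with no overlap. Neither response passed (0.72 ± 0.22, adjusted p = 0.0897, and -0.61 ± 0.22, adjusted p = 0.107). The genotypes differed by -1.10 ± 0.22 at 24 h (adjusted p = 0.218) and the responses by -1.33 ± 0.30 (adjusted p = 0.531). The 24 h difference passed in 1 of 17 alternatives, the trended robust prior (adjusted p = 0.0365), and its adjusted p reached 0.506 in the others. Higher at 24 h in wild type and lower in the null-labelled arrays, with no overlap in either, was the pattern of 3 of the 34 genes (Cpt1a, Hadha and Vnn1) and of 2.15% of all genes, and the reverse was seen in 0 of the 34 and 2.29% of all genes.

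Bdh1, the mitochondrial enzyme that interconverts the ketone bodies acetoacetate and hydroxybutyrate, is the only gene of the list that acts on ketone bodies. It read 10.69 and 10.68 in wild type at 0 h, 10.47 and 11.06 at 24 h, and 10.50 and 10.61 against 10.35 and 9.91 in the null-labelled arrays. Its responses, 0.07 and -0.43, did not pass (adjusted p = 0.872 and 0.264).

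Pdk4, Fgf21 and Angptl4 are PPARA targets that respond to fasting. Pdk4 encodes a kinase that shuts off pyruvate dehydrogenase and so spares glucose. It read 6.08 and 5.73 in wild type at 0 h, 9.87 and 7.22 at 24 h, and 4.57 and 4.47 against 7.29 and 8.71 in the null-labelled arrays. All 4 arrays at 24 h lie above the 0 h arrays, but the pools at 24 h differ widely within both genotypes. Pdk4 rose by 3.06 ± 0.62 in the mean response (adjusted p = 0.0175), an 8.33-fold change. In the single genotypes the values were 2.64 ± 0.88 (adjusted p = 0.112) and 3.48 ± 0.88 (adjusted p = 0.0509).

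Fgf21 encodes a hormone the liver releases in fasting. It read 4.12 and 4.83 in wild type at 0 h, 6.10 and 6.73 at 24 h, and 5.13 and 4.03 against 3.69 and 5.16 in the null-labelled arrays. Wild type arrays at 24 h are the 2 highest, but the other arrays, at 3.69 to 5.16, lie close to the filter at 3.60, so a fold has little precision. The wild type response was 1.94 ± 0.61 (adjusted p = 0.0966) and the 24 h genotype difference -1.99 ± 0.61 (adjusted p = 0.327), and neither passed. Angptl4, an inhibitor of lipoprotein lipase, read 10.69 and 10.18 against 9.60 and 9.98 in the 0 h arrays of wild type and null-labelled animals. At 24 h it read 10.75 and 10.25 against 10.17 and 10.42, so the genotypes overlapped. Its 0 h difference was -0.64 ± 0.27 (adjusted p = 0.525).

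Between genotypes none of the 34 passed, at 0 h (0% of all genes passed) or at 24 h (0.00692% of all genes, which is 1 gene, Gstm3). At unadjusted p under 0.05, limma counted 3 of the 34 at 0 h (Cpt2, Crot and Crat) and 15 at 24 h, against 1390 and 1695 of the 14450 genes. At 24 h the list lay low in the null-labelled arrays by sign: 32 of 34 were lower than in wild type, with a median of -0.43 against 0.01 over all genes. The exceptions were Ppargc1a (0.23) and Acot1 (0.09). In 26 of 34 genes (76.5%) both null-labelled arrays lay below both wild type arrays, where 19.7% of all genes did so, and in 0 the reverse (20.9% of all genes).

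This pattern depended in size on how the arrays were scaled. Array 2 of the null-labelled pair at 24 h had a median signal of 3.94 as deposited, against 4.20 to 4.31 in the other arrays. Leaving out 1 array at a time gave a median over the 34 genes of -0.43 to -0.35. With the deposited values 32 were lower (median -0.38) and 24 separate in that direction, against 20.8% of all genes. With arrays centred on their medians 25 were lower, 13 separate in that direction (10.3% of all genes) and 1 in the other. For the other direction no share over all genes was computed under this scaling. The median was then -0.22 over the 34 genes and 0.14 over all genes. The signs of Fabp1, Slc25a20, Acadl, Decr1, Etfa, Etfb and Angptl4 turned between scalings. At 0 h the median was -0.01, with 20 of the 34 lower, and 11 separate in that direction and 3 in the other (23.9% and 24.2% of all genes).

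**Figure D4:**
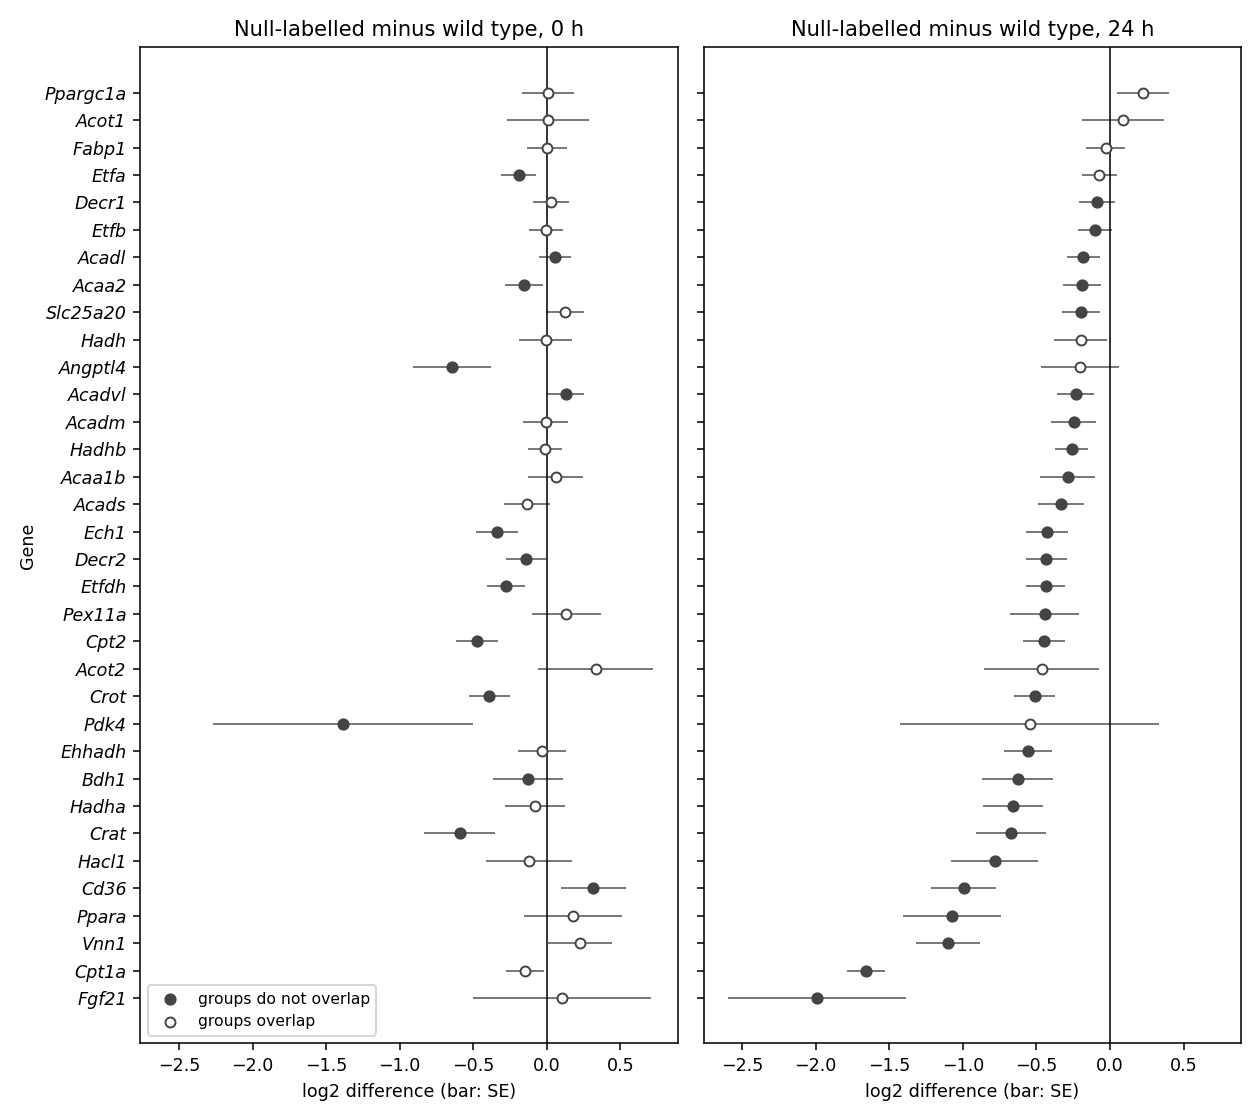
Null-labelled minus wild type log2 signal of the 34 genes (rows) at 0 h and at 24 h (panels), with bars of 1 SE and filled points where the arrays of the groups do not overlap. At 0 h the points scatter around 0 (median -0.01), while at 24 h 32 of 34 lie below 0 (median -0.43) with Cpt1a at -1.66 and Fgf21 at -1.99.

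None of the differences between the responses passed (0% of all genes did). By sign 28 of 34 responses were lower in the null-labelled arrays, with a median of -0.24 against 0.00 over all genes. With median centring it was -0.10 against 0.12. At unadjusted p under 0.05, limma counted 5 of the 34 and 1244 of the 14450 genes. Responses of opposite sign, positive in wild type and negative in the null-labelled arrays, were seen in 11 of the 34 and in 13.7% of all genes, and the reverse in 0 and 13.6%. These counts depended on the scaling. Of the 11, only Cpt1a, Hadha, Vnn1 and Fgf21 kept the pattern both with the deposited values and with median centring. Under both of these scalings Hadhb had the pattern too, and Angptl4 had the reverse. The 2 responses share no arrays, but the genotype difference at 24 h, the difference of the responses and the responses themselves do.

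Signs of RNA quality and of other cells moved with these comparisons, and their part in the results was not tested. The log2 ratio of 3' to 5' actin probe sets was 1.22 ± 0.25 (SD, n = 2) in wild type and 1.57 ± 0.03 in null-labelled arrays at 0 h. At 24 h it was 0.97 ± 0.09 and 1.27 ± 0.07. The same ratio for Gapdh was 0.23 ± 0.07 in wild type and 0.52 ± 0.02 in null-labelled arrays at 0 h. At 24 h the Gapdh ratio was 0.07 ± 0.10 and 0.16 ± 0.12, and there the genotypes overlapped. Of 12 Kupffer cell and macrophage markers, summed linear signals at 24 h were 2590 to 3276 in wild type and 3402 to 3777 in null-labelled arrays, where their median genotype difference was 0.37 and none passed. At 0 h the sums were 3173 to 3650 and 3077 to 3079. The adipocyte markers without Pck1, which hepatocytes also express, summed to between 190.5 and 232.0 at 0 h and between 518.9 and 873.5 at 24 h. Without Fabp4 as well, the sum was 40.4 to 71.2 in every array, and Adipoq, Lep and Cidea were too dim to be tested. In the mean response 2 of the 12 Kupffer cell and macrophage markers rose and 4 fell (median 0.00), against 13.8% and 15% of all genes. The macrophage receptor gene Marco was among those that rose, by 4.07 ± 0.21 (adjusted p = 0.0012). Of 10 stellate cell markers 3 fell in the mean response (median -0.46), and their sums were 2119 to 2430 in wild type at 0 h and 1742 to 2000 at 24 h, and 1879 to 2388 and 1804 to 1882 in null-labelled arrays. The sums over 11 liver endothelial markers at 0 h were 1999 to 2082 in wild type and 1376 to 1705 in null-labelled arrays, with a median genotype difference of -0.42 and none passing, and at 24 h 1555 to 1914 and 1671 to 1867.

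Beyond the 34, 116 other genes of these pathways were measured above the filter, of 134 listed. They leaned downward after hepatectomy. In wild type 12 rose and 16 fell (median -0.16), against 4.13% and 5.08% of all genes. The null-labelled arrays had 7 rises and 31 falls (median -0.35), against 7.45% and 7.23% of all genes. In the mean response 18 rose and 42 fell (median -0.28, all genes -0.04), against 13.8% and 15% of all genes, so that the share of rises was near that of all genes. Of 30 other mitochondrial and ketogenic genes, 3 rose and 17 fell in the mean response (median -0.41). Among 27 regulators and partners 3 rose and 12 fell, among 37 peroxisomal and omega-oxidation genes 4 rose and 9 fell, and among 22 genes of uptake, activation and release 8 rose and 4 fell.

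The 6 largest rises of the 116 in the mean response were these. Slc16a6, a monocarboxylate transporter, rose by 2.05 ± 0.39 (adjusted p = 0.0145), Fabp4, a fatty acid binding protein typical of adipocytes and macrophages, by 2.01 ± 0.20 (adjusted p = 0.00327), and Cyp4a31, of the omega-hydroxylase family, by 1.64 ± 0.24. Acot9, a thioesterase, rose by 1.63, Slc16a1, a carrier of lactate and ketone bodies, by 1.26 and Slc27a4, a fatty acid transport protein, by 1.23. The largest falls were in Acsm5, a medium-chain acyl-CoA synthetase (-2.12 ± 0.21, adjusted p = 0.0033), Ppargc1b, the relative of Ppargc1a (-1.88 ± 0.18, adjusted p = 0.00309), and Lpin1, a coactivator and phosphatidate phosphatase (-1.69 ± 0.33). Pdk2, a relative of Pdk4, fell by 1.63, Ivd, of leucine breakdown, by 1.49, and Nudt7, a peroxisomal coenzyme A hydrolase, fell by 1.46.

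Between genotypes at 24 h none of the 116 passed, with a median of -0.16 and 77 lower. In 51 of them (44.0%) the null-labelled arrays lay wholly below wild type, against 19.7% of all genes, and in 15 wholly above, against 20.9%.

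**Figure D5:**
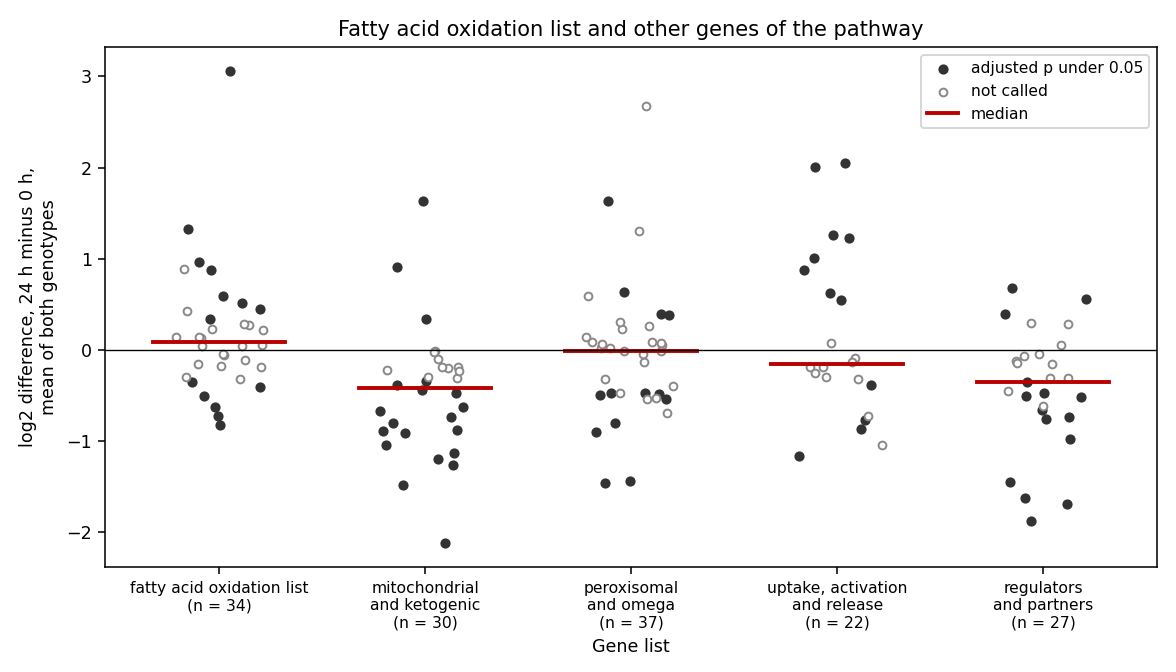
Log2 difference of 24 h minus 0 h in the mean of both genotypes (y axis) for the 34 genes of the list and the 116 others in their 4 groups, 1 point per gene, filled where the adjusted p is under 0.05, with a bar at the median of each group. The median is 0.09 for the 34 genes and -0.41 for the 30 other mitochondrial and ketogenic genes, most of which lie below 0.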

How the data were processed

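The deposited values are log2 signals of 45101 probe sets, as read from the values themselves; no source used here names the algorithm behind them. From them, 64 control probe sets were left out and the arrays quantile normalised. Probe sets past the 40th percentile (3.60) in 2 or more of the 8 arrays were kept. Of the probe sets, 34945 had 1 gene symbol, 932 several and 9160 none or no entry, and 34741 were matched to RefSeq for current symbols. limma 3.58.1 (R 4.3.3) fitted a mean for each of the 4 groups (4 residual and 2.01 prior degrees of freedom), tested 6 comparisons over 14450 genes and adjusted by Benjamini-Hochberg. The procedure was tested on simulated data. The number of arrays limits the precision.

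The genes and lists were chosen with earlier results of these data known. Genes given array by array passed in at least 1 comparison, were among the 4 smallest p in a genotype comparison or belong to a role group of 3 or fewer; Hadha's arrays and single values of other genes were added after they were seen. Of the other pathway genes, the 6 largest rises and falls in the mean response are named. Signal sums over markers are linear.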

Additional observations from a re-analysis of the deposited data

How the results depend on the processing

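Genes that passed, and the 4 with the smallest p in each genotype comparison, kept the sign of those differences under the alternatives run. Smaller responses turned sign between scalings: in wild type Crot, Acadm, Etfdh, Hacl1, Bdh1 and Angptl4, in the null-labelled arrays Cd36, Acadvl, Hadhb and Etfdh, and in the mean Cpt1a, Hadhb and Etfdh. Numbers of the 34 genes called, against 5 in each genotype's response (wild type first), were 9 and 9 with 16 added to linear signals, 10 and 10 with a filter at the 60th percentile, 17 and 13 with a trended robust prior, 2 and 1 without a filter, and 0 and 0 with only the 2 groups compared. Median centring gave 2 and a mean over probe sets 3 in wild type; without a filter the count in the mean response was 9. With 16 added, the 60th percentile filter and the trended prior, the 24 h genotype difference had 1, 1 and 2, and the difference of responses 1 under the last. Medians that moved were 0.10 in wild type and 0.0108 in the mean (deposited values), -0.0582 (mean over probe sets) and -0.0377 (median centring) in the null-labelled arrays, and -0.22 at 24 h and -0.10 for the difference of responses (median centring).

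Over all genes, the wild type count was 2155 with 16 added, 2346 at the 60th percentile, 806 with median centring, 542 unfiltered, 2 with 2 groups and 2592 with the trended prior, and the null-labelled count 1026 unfiltered, 0 with 2 groups and 3204 with the trended prior. Genotype calls at 0 h were 7, 8, 2, 1, 13 and 3 (16 added, 60th percentile, median centring, unfiltered, trended, deposited), at 24 h 30, 9, 3, 0 and 109 (the first 5 of these) and 0 with 2 groups, and 10 for the difference of responses (trended).

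Replicate numbers are only shared numbers (correlation of deviations -0.197 to 0.051). A replicate block gave 1 and 0 of the 34 and 332 and 903 of all genes in the wild type and null-labelled responses, and 0 at 24 h between genotypes.

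Leaving out 1 array at a time gave 0 to 6 (wild type), 0 to 5 (null-labelled), 4 to 13 (mean) and 0 (genotype comparisons) of the 34, and over all genes 3 to 1446, 30 to 1804, 2183 to 3883, 0 to 0 at 0 h, 0 to 1 at 24 h and 0 to 0. The medians ran over 0.18 to 0.30, -0.17 to -0.022, 0.04 to 0.15, -0.11 to 0.0095, -0.43 to -0.35 and -0.33 to -0.17. The remaining array of a group was then assumed to vary like the others.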

Other observations

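Pnpla2, the lipase that starts the release of fatty acids from stored triglyceride, and Cyp4a14, an omega-hydroxylase controlled by PPARA, lie outside the naming rule and were chosen after their values were seen. Pnpla2 read 8.65 and 8.64 in wild type at 0 h, 10.24 and 10.01 at 24 h, and 8.70 and 8.86 against 8.93 and 9.19 in the null-labelled arrays. It rose by 1.48 ± 0.15 in wild type (limma, adjusted p = 0.0155), while the null-labelled value was 0.28 ± 0.15 (adjusted p = 0.255). The difference at 24 h was -1.07 ± 0.15 (adjusted p = 0.155) and that of the responses -1.20 ± 0.22 (adjusted p = 0.433), and neither passed. Cyp4a14 read 4.45 and 8.12 in wild type at 0 h, 10.06 and 10.92 at 24 h, and 10.80 and 10.04 against 11.63 and 11.51 in the null-labelled arrays. The first wild type array at 0 h stands far below the other 7. The wild type response was 4.21 ± 1.11 (adjusted p = 0.0687) and the genotype difference at 0 h 4.14 ± 1.11 (adjusted p = 0.415), and neither passed.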
